A study of Bos indicus with 5 samples.

Results

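The circadian clock genes of the oviduct ampulla were examined in Nelore (Bos indicus) cows whose ovulatory follicle had been made large or small by hormone treatment. The set was defined by symbol as 10 genes, PER1, PER2, PER3, CRY1, CRY2, ARNTL, CLOCK, NR1D1, NR1D2 and DBP, and 8 of them were matched among the 24616 genes of the normalized count table. PER2 and PER3 were not analysed here. All 8 matched genes had a mean value over 5 and entered the test.

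The ampulla is the wide part of the oviduct in which fertilization takes place. The 2 LF/LCL cows (large follicle, large corpus luteum) had their progesterone device taken out 42 h before the GnRH agonist that induced ovulation and had an extra prostaglandin F2 alpha injection when the device was inserted. The 3 SF/SCL cows (small follicle, small corpus luteum) had the device taken out 30 h before GnRH and no such extra injection. Both groups were healthy, multiparous and not lactating and shared the rest of the protocol. All cows had pre-synchronization with GnRH agonist and prostaglandin analog, a 1 g progesterone device and 2 mg estradiol benzoate. They also had prostaglandin analog (0.5 mg cloprostenol) at and after device removal, and 1 µg buserelin acetate, the GnRH agonist, to induce ovulation. Slaughter was on day 4, counted from the day of that last injection. The sequenced cows were the highest ranked of LF/LCL and the lowest ranked of SF/SCL by follicle, corpus luteum and plasma steroids, and 1 LF/LCL library was left out by the authors because it gave few reads. Age, and the hour of the day at which each cow was slaughtered, were not given in the sources used here. The tissue was the full thickness of the ampulla wall on the side of the corpus luteum, so that epithelium, stroma, muscle and vessels were measured together.

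The mammalian clock is a feedback loop that runs in most tissues. ARNTL (also called BMAL1) and CLOCK form a dimer that activates genes with E-box elements, among them the PER, CRY, NR1D and DBP genes. PER and CRY proteins return to the nucleus and inhibit the dimer, and the REV-ERB receptors NR1D1 and NR1D2 repress ARNTL, against the ROR receptors that activate it. DBP is an output factor of the loop. In most tissues the transcripts of DBP and NR1D1 peak at nearly the opposite time of day to that of ARNTL, while CLOCK changes little. PER1 also responds directly to signals such as glucocorticoids and cAMP. In the female reproductive tract the clock is known to run in the oviduct, uterus and ovary.

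Reads assigned to genes ran from 13418278 to 19592174 per library. The clock genes were measured with between 179 reads (CLOCK in SF/SCL replicate 3) and 2680 reads (PER1 in SF/SCL replicate 3) in a library. The oviduct origin of the tissue showed in OVGP1, the oviductal glycoprotein, which ran from 117179 to 147247 normalized reads. FOXJ1, the master regulator of ciliated cells, ran from 8481 to 12698. LF/LCL replicate 1 had the highest summed markers of stroma, muscle, blood and proliferation, as given with the cell type lists. Each cow is 1 library. The p-values set a group difference against the spread between cows of the same group, for which limma also draws on the other genes tested.

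None of the 8 clock genes passed the test between LF/LCL and SF/SCL, and in none of them did the values of the groups separate. NR1D1 had the largest group difference, at 1.64-fold higher in LF/LCL, and its values still overlapped. The smallest limma adjusted p among the 8 was 0.452. Of the 15815 genes tested, 0% had an adjusted p under 0.05, so that the absence of calls among the clock genes matches the table as a whole. An unadjusted p under 0.05 was found for 0 of the 8 clock genes and for 11.5% of all genes tested, and groups that did not overlap for 0 of the 8 and for 30.1% of all. The median log2 fold change of the 8 was -0.01, with 4 above 0 and 4 below, beside a median of 0.01 over all genes tested. DESeq2, run on the recovered reads, called 2.91% of all genes and none of the 8.

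**Figure D1:**
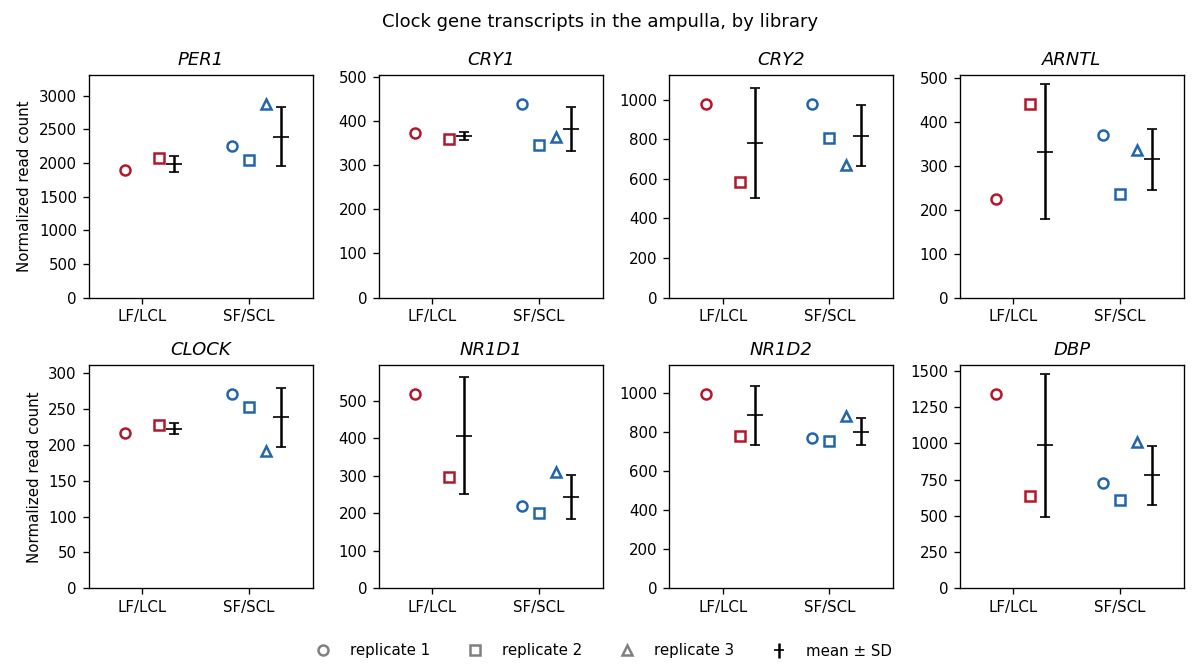
Normalized read counts (y axis, from 0) of the 8 matched clock genes in the 2 LF/LCL libraries (red) and the 3 SF/SCL libraries (blue), with each replicate as a symbol and the group mean ± SD as a bar. In every panel the values of the groups overlap, and the LF/LCL cows lie far apart in CRY2, ARNTL, NR1D1 and DBP, with DBP at 1338 and 639.8.

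The activators came first in the loop. ARNTL (ENSBTAG00000013029) had 224.0 and 441.4 normalized reads in LF/LCL replicates 1 and 2. In SF/SCL replicates 1 to 3 it had 370.1, 237.0 and 337.0 normalized reads. The lowest and the highest of the 5 libraries were thus both LF/LCL cows, with the SF/SCL cows between them. Their 95% Poisson intervals, which cover counting error only, ran from 193.4 to 258.1 and from 401.8 to 483.8. The group means were 332.7 ± 153.7 (SD, n = 2) and 314.7 ± 69.3 (SD, n = 3), with a log2 fold change of 0.02 ± 0.34 (SE), a 95% interval of -0.81 to 0.86 and a limma adjusted p of 0.989. The sign of this value was set by single cows, as it was 0.51 without LF/LCL replicate 1 and -0.46 without LF/LCL replicate 2.

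CLOCK (ENSBTAG00000044044), the partner of ARNTL, varied more among the SF/SCL cows than between the LF/LCL cows. It had 217.0 and 228.4 normalized reads in LF/LCL, against 270.3, 252.6 and 192.1 in SF/SCL. The LF/LCL values lay inside the SF/SCL range. Its log2 fold change was -0.08 ± 0.21 (SE) with a 95% interval of -0.59 to 0.42. The Poisson intervals of the LF/LCL cows, 186.8 to 250.6 and 200.2 to 259.5, overlapped, so that no difference between them was detectable at this depth. Between the LF/LCL cows CLOCK differed by -0.07 on the log2 scale (replicate 1 minus replicate 2), where ARNTL differed by -0.98.

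Among the repressors, PER1 (ENSBTAG00000003889) had its highest value in an SF/SCL cow. It had 1899.9 and 2073 normalized reads in LF/LCL, against 2257, 2039 and 2876 in SF/SCL. LF/LCL replicate 2 lay just above SF/SCL replicate 2, so that the groups overlapped by this pair alone. The log2 fold change was -0.25 ± 0.16 (SE), a 95% interval of -0.65 to 0.14, with a limma adjusted p of 0.604. In the fits that left out 1 cow it stayed below 0, from -0.36 to -0.11.

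CRY1 (ENSBTAG00000010149) was the steadiest of the 8. It had 372.9 and 360.1 normalized reads in LF/LCL, against 438.8, 345.1 and 362.7 in SF/SCL. Only SF/SCL replicate 1 stood above the others. The highest value was 1.27 times the lowest, and the log2 fold change was -0.05 ± 0.16 (SE), with a 95% interval of -0.44 to 0.33.

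CRY2 (ENSBTAG00000021223) differed more between cows than its paralog. It had 979.3 and 584.6 normalized reads in LF/LCL, against 976.3, 806.7 and 668.6 in SF/SCL. The LF/LCL cows held both the lowest value and the highest, the latter level with SF/SCL replicate 1. The log2 fold change was -0.09 ± 0.26 (SE), with a 95% interval of -0.74 to 0.55. It was 0.28 without LF/LCL replicate 2 and -0.47 without LF/LCL replicate 1.

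The REV-ERB receptors repress ARNTL by binding in competition with the ROR receptors. NR1D1 (ENSBTAG00000012178) had 516.0 and 297.2 normalized reads in LF/LCL, against 219.4, 199.7 and 309.1 in SF/SCL. Both LF/LCL cows were above SF/SCL replicates 1 and 2, and SF/SCL replicate 3 was above LF/LCL replicate 2. The group means were 406.6 ± 154.8 (SD, n = 2) and 242.7 ± 58.3 (SD, n = 3). Its log2 fold change was 0.71 ± 0.30 (SE), with a 95% interval of -0.02 to 1.45 and a limma adjusted p of 0.452. It was 0.32 without LF/LCL replicate 1 and 1.11 without LF/LCL replicate 2. Without SF/SCL replicate 3 the groups no longer overlapped and it was 0.90.

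The NR1D1 gene is known to overlap THRA, a thyroid hormone receptor gene on the opposite strand, and whether strand was used in counting was not stated, so that reads of the pair may not be told apart. THRA (ENSBTAG00000010745) had 1799 and 1729.7 normalized reads in LF/LCL, against 2139, 1964 and 2061 in SF/SCL. It was thus lower in both LF/LCL cows than in every SF/SCL cow, opposite to the direction of NR1D1, with a log2 fold change of -0.22 ± 0.10 (SE) and an adjusted p of 0.46 by limma. THRA was looked at after the values of NR1D1 were known.

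NR1D2 (ENSBTAG00000018024) ranked the 5 cows in the same order as NR1D1, over a smaller range. It had 992.2 and 779.2 normalized reads in LF/LCL, against 769.4, 753.8 and 883.2 in SF/SCL. For both receptors LF/LCL replicate 1 was highest and SF/SCL replicate 2 lowest. The log2 fold change of NR1D2 was 0.14 ± 0.15 (SE), with a 95% interval of -0.23 to 0.50. The highest library was 1.32 times the lowest for NR1D2 and 2.58 times for NR1D1.

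DBP (ENSBTAG00000006754), a PAR bZIP factor that carries clock timing to its target genes, had the widest spread within groups. It had 1338 and 639.8 normalized reads in LF/LCL, against 726.7, 608.5 and 1007 in SF/SCL. LF/LCL replicate 1 was above every other cow, while LF/LCL replicate 2 was lower than all but SF/SCL replicate 2. The group means were 989.0 ± 493.8 (SD, n = 2) and 780.6 ± 204.5 (SD, n = 3), with a log2 fold change of 0.28 ± 0.36 (SE), a 95% interval of -0.61 to 1.16 and a limma adjusted p of 0.823. The value was 0.81 without LF/LCL replicate 2 and -0.25 without LF/LCL replicate 1.

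**Figure D2:**
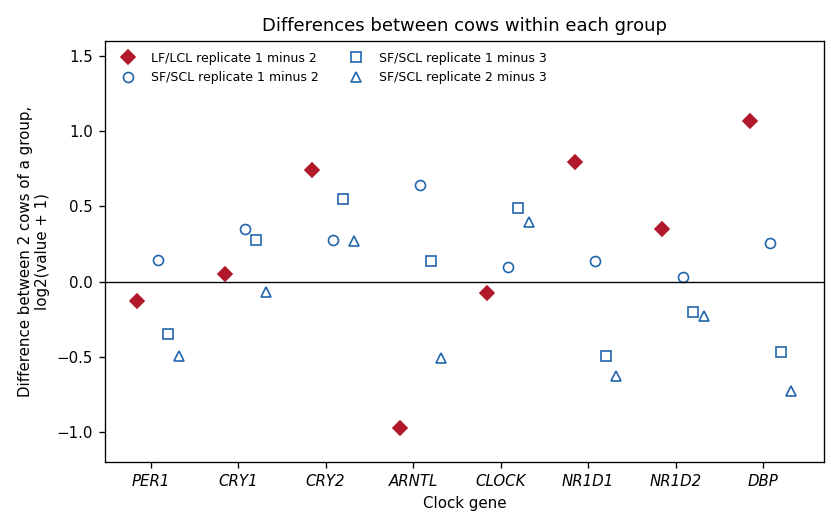
Differences between cows of the same group on the log2(value + 1) scale (y axis) for each clock gene (x axis), with LF/LCL replicate 1 minus replicate 2 as red diamonds and the 3 SF/SCL differences as open blue symbols. The LF/LCL difference is above 0 for CRY2, NR1D1, NR1D2 and DBP, at 0.05 for CRY1, at -0.13 for PER1 and at -0.98 for ARNTL. The SF/SCL differences of PER1, NR1D1, NR1D2 and DBP share their signs.

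Cows of the same group differed from each other in these genes. Between the LF/LCL cows, replicate 1 exceeded replicate 2 by 2.09-fold in DBP, 1.73-fold in NR1D1, 1.67-fold in CRY2 and 1.27-fold in NR1D2, and had 0.509 times its ARNTL. PER1, CRY1 and CLOCK differed little, by -0.13, 0.05 and -0.07 on the log2 scale. Of the genes that ARNTL and CLOCK activate, DBP, NR1D1, CRY2 and NR1D2 were thus higher in the cow in which ARNTL was low, and PER1 and CRY1 were near level. There are 2 cows in this group, and no test applies to the difference between them. As a description, the size of this difference exceeded that of 89.6% of all genes tested for DBP, 88.1% for ARNTL, 83.9% for NR1D1 and 82.5% for CRY2, and that of 62.6% for NR1D2, 30.0% for PER1, 18.2% for CLOCK and 12.5% for CRY1. Its median over the 8 genes was 0.55 on the log2 scale, beside 0.24 over all genes tested, 0.60 over the immediate early genes and 1.19 over the stromal fibroblast markers described with the cell types. The range over the 3 SF/SCL cows had a median of 0.52 and was the larger of the 2 in PER1, CRY1 and CLOCK. A range over 3 cows tends to exceed a difference between 2, so the groups cannot be ranked by these sizes. No value of this range over all genes is given here.

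In SF/SCL, NR1D1, NR1D2 and DBP again moved together. Replicate 3 was the highest SF/SCL cow in PER1, DBP, NR1D1 and NR1D2, and replicate 2 the lowest in each of these. ARNTL was also lowest in replicate 2, and was intermediate in replicate 3. ARNTL differed by 0.14 on the log2 scale (replicate 1 minus replicate 3), where NR1D1 differed by -0.49, DBP by -0.47 and NR1D2 by -0.20. These signs were opposed as in the LF/LCL pair, but CRY2, at 0.55, had the sign of ARNTL here and not there. The Poisson intervals of ARNTL in these cows, 332.7 to 410.6 and 300.7 to 376.4, overlapped. Replicate 1 minus replicate 2 was 0.64 in ARNTL, 0.13 in NR1D1, 0.03 in NR1D2 and 0.26 in DBP. Replicate 2 minus replicate 3 was -0.51, -0.63, -0.23 and -0.73 in the same order. In these pairs ARNTL thus had the same sign as NR1D1, NR1D2 and DBP. In SF/SCL replicate 2 alone, ARNTL and DBP were both low. Of the 8 genes, 4 had their highest value of all cows in LF/LCL replicate 1 and 4 had their lowest in SF/SCL replicate 2.

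Ratios taken within a library do not depend on its scaling. The log2 ratio of NR1D1 to ARNTL was 1.20 in LF/LCL replicate 1 and -0.57 in LF/LCL replicate 2. It was -0.75, -0.25 and -0.12 in SF/SCL replicates 1, 2 and 3. LF/LCL replicate 1 was therefore the only cow with more NR1D1 than ARNTL reads, and the other LF/LCL cow fell within the SF/SCL range. For DBP to ARNTL the log2 ratio was 2.57 in LF/LCL replicate 1 and 0.53 in replicate 2, and the SF/SCL cows had 0.97, 1.36 and 1.58. The LF/LCL cows again held both ends. These ratios compare reads per gene without regard to gene length, so that only their differences between cows can be read.

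The profiles of NR1D1 and DBP over the 5 cows lay close together. Each gene was expressed as log2(value + 1) minus its mean over the 5 libraries, and likeness as the root mean square difference between these profiles. NR1D1 and DBP differed by 0.23, whereas ARNTL differed by 0.69 from NR1D1 and by 0.68 from DBP, the widest gaps of all pairs. This measure also grows with the range of a gene. NR1D1, DBP and ARNTL had the widest ranges of the members, at 2.58-fold, 2.20-fold and 1.97-fold. With the signs of the ARNTL profile turned, it still differed by 0.52 from NR1D1 and by 0.43 from DBP. CRY1 and CLOCK, which ranged 1.27-fold and 1.41-fold over the cows, were the closest pair at 0.15.

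By the same measure over the 5 libraries, the 3 genes nearest to each of ARNTL, NR1D1 and PER1 were sought among the 11951 other genes with a symbol and a mean of at least 50. Nearest to NR1D1 were PRRX1, a homeobox factor of mesenchymal cells, at 0.05, IGFBP4, a binding protein of insulin-like growth factors, at 0.09, and SOX18, an endothelial transcription factor, at 0.09. PRRX1 had 201.7 and 122.0 normalized reads in LF/LCL, against 87.3, 75.4 and 113.8 in SF/SCL. Nearest to ARNTL were IFI27L2, SGCA and RHPN1, at 0.07 to 0.08. Nearest to PER1 were N4BP2, ITGA3 and P4HB, at 0.02 to 0.04. No core clock gene was among them. With 5 libraries many genes fall near any profile, and these are given as a description.

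**Figure D3:**
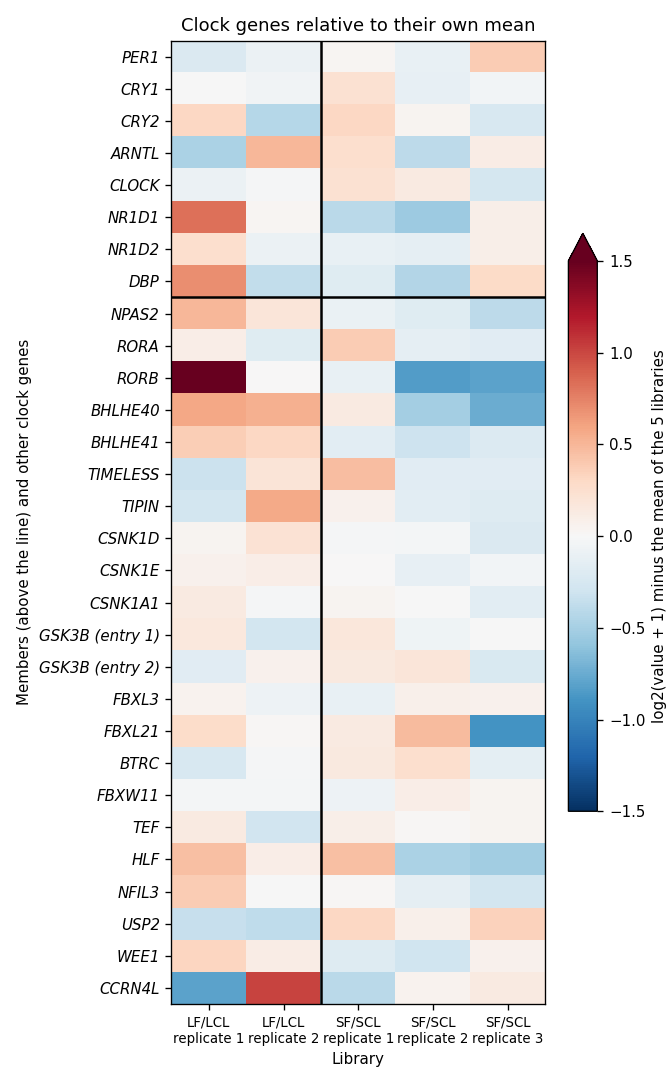
Log2(value + 1) of each clock gene minus its mean over the 5 libraries (colour, red above and blue below its mean) for the 8 matched members above the line and the other clock genes tested below it. The colours stop at 1.5, which RORB in LF/LCL replicate 1 exceeds at 1.74. NR1D1 and DBP are red and ARNTL blue in LF/LCL replicate 1, while BHLHE40 and BHLHE41 are red in both LF/LCL libraries.

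Other genes of the clock were taken from a list of 23 symbols, of which 22 were matched. CIART was not analysed here, ARNTL2 had 4 reads in all and was not tested, and GSK3B was present as 2 entries, which made 22 entries tested. Of the 22 entries tested, 0 passed with limma. Values did not overlap between groups in 8 of the 22, 7 of them higher in LF/LCL. Over all genes the share was 30.1%, with 2371 of 4765 higher in LF/LCL. An unadjusted limma p under 0.05 was found for 5, with 4 higher in LF/LCL. Over all genes that share was 11.5%, with 892 of 1819 higher in LF/LCL. The median log2 fold change of the list was 0.16. DESeq2 called 2 of the 22, BHLHE41 and USP2, beside the 2.91% of all genes.

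BHLHE41 and BHLHE40 encode the DEC proteins, E-box repressors that form a further arm of the loop. BHLHE41 (ENSBTAG00000030575) had 2043 and 1968 normalized reads in LF/LCL, against 1414, 1275 and 1367 in SF/SCL. The cows of each group lay close together and the groups were apart. Its log2 fold change was 0.57 ± 0.10 (SE), a 1.48-fold higher level in LF/LCL, with a limma adjusted p of 0.197 and a DESeq2 adjusted p of 0.00079. BHLHE40 (ENSBTAG00000009863) had 572.3 and 554.6 normalized reads in LF/LCL, against 419.0, 268.1 and 226.4 in SF/SCL. Again no SF/SCL cow reached an LF/LCL cow, with a log2 fold change of 0.94 ± 0.27 (SE), and limma gave an adjusted p of 0.323. Without LF/LCL replicate 1 the log2 fold changes were 0.54 for BHLHE41 and 0.91 for BHLHE40.

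USP2, a clock-controlled deubiquitinase, was the one gene of the list with non-overlapping values that was lower in LF/LCL. USP2 (ENSBTAG00000009749) had 680.2 and 663.0 normalized reads in LF/LCL, against 1079, 914.7 and 1099 in SF/SCL. Its log2 fold change was -0.61 ± 0.12 (SE), with a limma adjusted p of 0.235 and a DESeq2 adjusted p of 0.0103. The LF/LCL cows that differed 2.09-fold in DBP differed by 1.03-fold in USP2. Among the SF/SCL cows, USP2 and DBP were both highest in replicate 3 and lowest in replicate 2. Replicate 1 minus replicate 3 was -0.03 on the log2 scale in USP2 and -0.47 in DBP. The log2 fold change of USP2 was -0.63 without LF/LCL replicate 1.

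Among the activators, RORB (ENSBTAG00000021699), a ROR receptor, had 167.7 and 49.4 normalized reads in LF/LCL, against 45.7, 27.2 and 27.9 in SF/SCL. LF/LCL replicate 1 had 3.35 times the level of replicate 2. The log2 fold change was 1.45 ± 0.59 (SE) with all cows, where limma gave an adjusted p of 0.427, and 0.58 without LF/LCL replicate 1. NPAS2, a paralog of CLOCK that is named here after its values were seen, had 350.7 and 280.7 normalized reads in LF/LCL, against 230.8, 217.6 and 188.9 in SF/SCL. Both LF/LCL cows were above all SF/SCL cows, with a log2 fold change of 0.57 ± 0.19 (SE) and an adjusted p of 0.362 by limma, and 0.41 without LF/LCL replicate 1.

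The remaining negative values of the list were smaller. For BTRC, a subunit of a ligase that targets PER proteins, the log2 fold change was -0.22 ± 0.16 (SE), and for TEF, a PAR bZIP factor like DBP, it was -0.12 ± 0.17. TEF had 433.9 and 324.3 normalized reads in LF/LCL and ran from 399.5 to 420.0 in SF/SCL. It was higher in LF/LCL replicate 1 than in replicate 2, as DBP was, but did not share the DBP difference among SF/SCL cows.

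**Figure D4:**
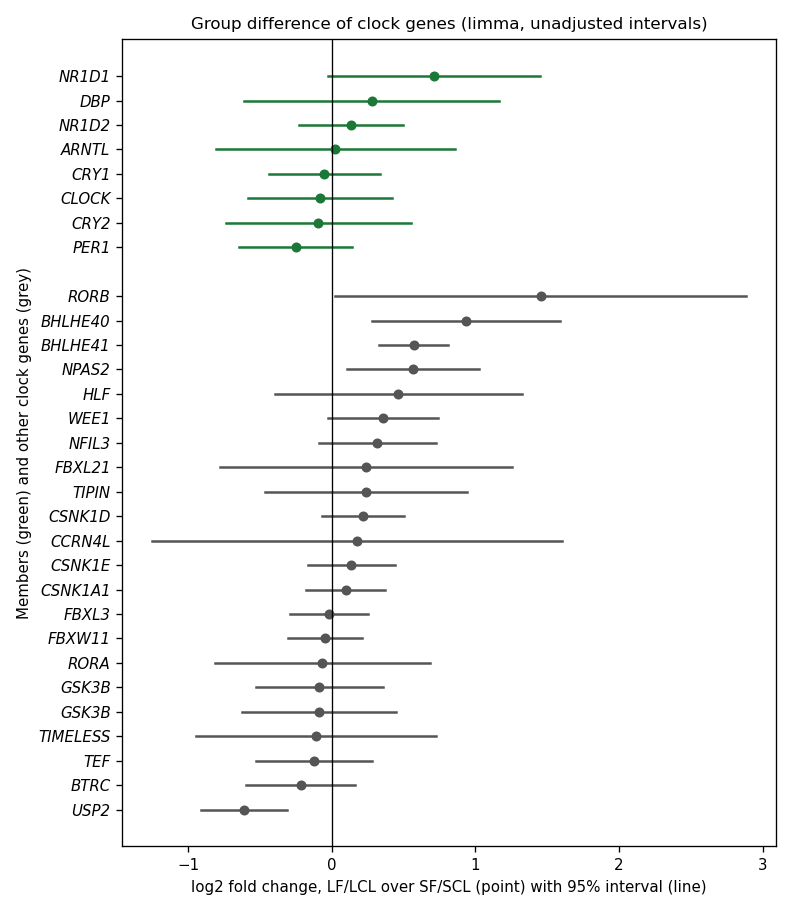
Log2 fold change of LF/LCL over SF/SCL (points) with its unadjusted 95% interval from limma (lines) for the 8 matched members (green) and the 22 other clock entries tested (grey, with both GSK3B entries). All member intervals include 0, with NR1D1 from -0.02 to 1.45, and those of RORB, BHLHE40, BHLHE41, NPAS2 and USP2 do not.

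PER1 is known to respond to steroids and to acute signals, so lists of such genes were read beside it. Of 8 steroid-responsive genes tested, 4 were higher and 4 lower in LF/LCL, with 0 limma calls and a median log2 fold change of 0.01, or -0.41 without LF/LCL replicate 1. They ran from SGK1, a steroid-induced kinase, at -1.60 ± 0.53 (SE) to FKBP5, a receptor co-chaperone, at 1.04 ± 0.39. SGK1 had 627.4 and 988.3 normalized reads in LF/LCL, against 3159, 1163 and 3701 in SF/SCL. FKBP5 had 11006 and 13682 normalized reads in LF/LCL, against 8188, 7537 and 3428 in SF/SCL. Neither gene overlapped between the groups, with limma adjusted p-values of 0.363 and 0.414, and DESeq2 called SGK1 but not FKBP5. SGK1 was highest and FKBP5 lowest in SF/SCL replicate 3, the cow with the highest PER1. Of 10 immediate early genes tested, 8 were higher in LF/LCL, from EGR2 at -0.33 ± 0.81 (SE) to IER3 at 0.68 ± 0.23, with 0 limma calls. FOS, an early response gene named here after its values were seen, had 574.7 and 107.4 normalized reads in LF/LCL, against 59.3, 430.5 and 157.8 in SF/SCL. PER1 was lowest in LF/LCL replicate 1, where FOS was highest.

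Markers of cell types moved between and within the groups, and in bulk tissue fewer cells of a type and less RNA per cell cannot be told apart. All 7 smooth muscle markers tested were higher in LF/LCL, and their summed level was 108378 and 54429.6 normalized reads in LF/LCL and from 13454.5 to 36719 in SF/SCL. All 8 ciliated markers were lower in LF/LCL, with sums of 51591 and 68028 against 72515 to 79150. Between the groups, RORB, BHLHE40, BHLHE41 and NPAS2 had the sign of the smooth muscle list and USP2 that of the ciliated list. Between the LF/LCL cows, the muscle sums were 108378 in replicate 1 and 54429.6 in replicate 2. Replicate 1 exceeded replicate 2 by 3.35-fold in RORB and 1.25-fold in NPAS2. The excess was 1.04-fold in BHLHE41, 1.03-fold in BHLHE40 and 1.03-fold in USP2. The part of these cell types in the group differences was not tested.

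Between the LF/LCL cows, the sum of the 7 stromal fibroblast markers was 74945 in replicate 1 and 31645.5 in replicate 2. It ran from 19423 to 42694 in SF/SCL. The cow with the most NR1D1 and DBP thus also had the highest stromal sum. Among these markers, LUM was higher in SF/SCL replicate 3, at 2549, than in LF/LCL replicate 1, at 2353. The blood markers summed to 506.6 in LF/LCL replicate 1, 65.8 in replicate 2 and from 18.2 to 235.5 in SF/SCL, while ALAS2 was at 0 in all libraries. In LF/LCL replicate 1 this sum came from the HBA entries, at 224.0 and 280.3, with HBB at 2.3 and HBM at 0. The 6 proliferation markers summed to 620.4 in LF/LCL replicate 1, 285.5 in replicate 2 and from 114.8 to 196.6 in SF/SCL, and their median log2 fold change of 1.40 was 0.83 without LF/LCL replicate 1. Of the other lists, the median log2 fold change was 0.44 for 7 immune, 0.10 for 5 endothelial, -0.03 for 3 mesothelial and -0.07 for 7 secretory markers, and without LF/LCL replicate 1 it was 0.67, -0.38, 0.93 and -0.15 in the same order. In SF/SCL, replicate 3 had both the highest stromal sum and the highest NR1D1 and DBP, and replicate 2 the lowest of each. The part of stromal RNA in the clock gene differences was not tested.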

How the data were processed

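Poly-A RNA of 5 ampulla samples was sequenced as paired ends. Per the study's methods and the labels, the authors aligned reads with TopHat2 (2.0.8) and Bowtie2 (2.1.0) to the masked UMD 3.1 assembly, counted unique reads per gene with HTSeq (0.5.4p2), and divided each count by a DESeq (1.12.1) size factor. The deposited table thus holds a normalized signal, with an Ensembl identifier and often a symbol per gene. Dividing each column by the value of 1 read gave whole reads for 100% of nonzero values, within 0.01 of a read.

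The main test was limma (3.58.1) with trend and robust estimation on log2(value + 1), for 15815 genes with a mean over 5, two-sided, Benjamini-Hochberg adjusted over all of them at 0.05. A fold change on this scale understates low genes. edgeR (4.0.16) and DESeq2 (1.42.0) on recovered reads, other scalings, filters and pseudocounts, and leaving out each cow, were alternatives. The scripts were tested on simulated data. The members and lists were chosen with earlier results of these data known. Named are all members, the 3 largest and 3 smallest fold changes of the other clock genes, the extremes of the steroid and immediate early lists, and nearest genes by profile. Other choices are stated. 1 gene of the list of other clock genes is not reported here. Promoter and protein sequences were not used here.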

Additional observations from a re-analysis of the deposited data

How the results depend on the processing

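Leaving out 1 cow turned the sign of CRY2, ARNTL, NR1D2 and DBP when it was an LF/LCL cow, of CRY1, CRY2 and CLOCK when it was SF/SCL replicate 1, and of ARNTL when it was SF/SCL replicate 2. Read depth limits CLOCK most, with 179 to 325 reads in a library. No member was called (adjusted p) under any of the 17 alternatives, although DESeq2 called 460 and the edgeR exact test 335 of all genes where limma and edgeR's quasi-likelihood test called 0. Both tools called 2 other clock genes, BHLHE41 and USP2, where limma called 0. The count of members with an unadjusted p under 0.05 was 1 (NR1D1) without a filter, in both edgeR quasi-likelihood fits, in DESeq2 and in the exact test, and ran from 0 to 2 when 1 cow was left out. The 2 were NR1D1 and DBP, without LF/LCL replicate 2. The count of members whose groups do not overlap was 1 (PER1) with library size scaling and ran from 0 to 6 when 1 cow was left out, where the same share over all genes rises to between 41.1% and 57.1% because fewer cows have to separate. The 6 came without LF/LCL replicate 2. Without LF/LCL replicate 1 there were 2, CRY2 lower and ARNTL higher. The median of the members ran from -0.06 to 0.13. Leaving out an LF/LCL cow assumes that the lone cow varies like the SF/SCL cows.

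Of 19 genes with their own values, 321 alternative values held 12 changes of sign. ARNTL went to -0.012 with library size scaling. Across the fits without 1 cow, log2 fold changes ran from -0.12 to 0.051 for CRY1, from -0.47 to 0.28 for CRY2, from -0.46 to 0.51 for ARNTL, from -0.23 to 0.015 for CLOCK, from -0.038 to 0.31 for NR1D2, from -0.25 to 0.81 for DBP, from -0.33 to 0.086 for TEF and from -0.74 to 0.26 for EGR2. NR1D1 (0.32 to 1.11) and PER1 (-0.36 to -0.11) kept their sign in those fits. No paired analysis was possible because the labels give no number that links cows of the groups.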
